A study of Mus musculus with 24 samples.

Results

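miR-183-5p (MIMAT0000212), miR-96-5p (MIMAT0000541) and miR-182-5p (MIMAT0000211) are the 5p arms of 3 neighbouring hairpins that form the miR-183 cluster. They were taken by these identifiers from a count table of 2045 mature miRNA loci, so 3 of 2045 loci are described, and all 3 passed the filter on low counts that left 654 loci for testing. Small RNA had been sequenced from the subcutaneous adipose tissue of female mice on a chow diet. The 24 libraries fell into 4 groups of 6: trained kinase dead, sedentary kinase dead, trained wild type and sedentary wild type (KinaseDead and WildType, Trained and Sedentary in the labels). The sources used here do not name the kinase, the promoter or allele behind the kinase dead genotype, the age of the mice or the fat depot. Training was treadmill running for 1 h on 5 days a week over 6.5 weeks at 16 m/min. A running wheel was freely available during the experiment, and the labels do not say whether the sedentary mice had one. The labels do not say that each library came from its own animal, and p-values therefore reflect only how these libraries vary.

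A miRNA is cut from a hairpin in a longer primary transcript, and the mature strand is loaded into an Argonaute protein, where bases 2 to 8, the seed, pair with target mRNAs. The miR-183 cluster is conserved across vertebrates, is known for its high level in sensory cells of the eye and the inner ear, and is processed from 1 primary transcript. Related but unequal seeds give its members target sets that overlap in part. The miR-200 family, miR-205 and miR-203 are the classical miRNAs of epithelium, and miR-150, miR-142 and miR-155 are abundant in lymphocytes.

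The mature sequences show how the 3 members are related, and they come from RefSeq with build GRCm38.p6, written 5′ to 3′ with the seed in capitals. miR-1271-5p is shown beside them because it was the 1 other mouse miRNA among 1738 mature RefSeq sequences with a member's seed, that of miR-96-5p. It is encoded on the plus strand of chromosome 13 at chr13:54578152-54578173, and its level was not analysed here.
miR-183-5p: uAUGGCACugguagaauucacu
miR-96-5p: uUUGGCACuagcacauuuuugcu
miR-182-5p: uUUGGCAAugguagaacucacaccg
miR-1271-5p: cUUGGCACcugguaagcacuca

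Counted from 1 at the 5′ end, the seeds of miR-183-5p and miR-96-5p differed by A2U, with the base of miR-183-5p given first. The seeds of miR-96-5p and miR-182-5p differed by C8A, and these 2 miRNAs shared their first 7 bases. The seeds of miR-183-5p and miR-182-5p differed by A2U and C8A. Beyond base 8 the likeness ran the other way, since miR-183-5p matched miR-182-5p at 12 of 14 positions and miR-96-5p at 6 of 14. miR-96-5p matched miR-182-5p at 5 of 15 positions there. Reads of such related sequences still differ at 4 or more positions, and among the 1670 loci with a RefSeq sequence no other carried the seed of a member.

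The hairpins lie on the minus strand of chromosome 6 within chr6:30165918-30169737, a span of 3820 bases in the mm10 (GRCm38) build that the count table also uses. Mir183 comes first in the direction of transcription at chr6:30169668-30169737, Mir96 follows 116 bases on at chr6:30169446-30169551, and Mir182 lies 3453 bases further at chr6:30165918-30165992. In the GENCODE annotation no gene other than these 3 miRNA genes overlapped the span. The nearest protein-coding genes were Nrf1, on the plus strand 12460 bases below, and Ube2h, on the minus strand 41552 bases above. The hairpins are shown to place the arm that was counted, which is in capitals.
Mir183: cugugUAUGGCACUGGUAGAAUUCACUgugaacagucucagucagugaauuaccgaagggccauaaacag
Mir96: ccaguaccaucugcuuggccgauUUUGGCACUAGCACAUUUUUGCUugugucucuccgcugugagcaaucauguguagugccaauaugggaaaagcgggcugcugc
Mir182: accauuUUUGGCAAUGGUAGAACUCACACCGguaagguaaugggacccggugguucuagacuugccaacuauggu

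Libraries held 1.601 to 23.59 M counted reads. The mean total was 10.84 M reads in trained kinase dead, 6.71 M in sedentary kinase dead, 9.952 M in trained wild type and 6.593 M in sedentary wild type libraries. Levels are given as CPM, the reads of a locus per M counted reads (M for mega), after scaling by trimmed mean of M values, and since a read covers a whole mature miRNA they were not divided by length. In these libraries 3 reads corresponded to 0.1182 to 1.8 CPM. The tissue label was read against 9 lists of marker miRNAs, none of which had a marker at 0 in every library. The 5 adipocyte enriched miRNAs summed to 55100 to 97350 CPM, the 7 epithelial miRNAs to 14310 to 26370 CPM and the 5 striated muscle miRNAs to 246.1 to 4210 CPM. Libraries stood apart by lymphocyte miRNAs: 7 of 24 had over 2000 CPM of miR-150-5p, with a sum of 13770 to 23290 CPM over the 5 lymphocyte markers, against 2463 to 3884 CPM in the other 17. Of those 7 libraries, 2 were trained kinase dead, 2 sedentary kinase dead, 2 trained wild type and 1 sedentary wild type. In bulk tissue, fewer cells of a type and less RNA per cell cannot be told apart.

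All 3 members were well measured, and their order was the same in 24 of 24 libraries, with miR-182-5p highest, miR-183-5p next and miR-96-5p lowest. miR-182-5p averaged 870.3 ± 219.5 CPM over the 24 libraries (SD) and ranked 96 among the 654 tested loci by mean level. miR-183-5p averaged 504.9 ± 114.2 CPM and ranked 118, and miR-96-5p averaged 110.8 ± 25.4 CPM and ranked 222. The coefficient of variation across libraries was 25.2% for miR-182-5p, 22.6% for miR-183-5p and 22.9% for miR-96-5p, beside a median of 31.37% over the tested loci. Counting error was a small part of this spread. It amounted to 2.7% at most for miR-182-5p, whose lowest library had 1371 reads, and to 6.77% at most for miR-96-5p, whose lowest library had 218 reads. Reads of different miRNAs are captured with unequal efficiency when adapters are ligated, so a ratio of reads between members is not a ratio of molecules.

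**Figure D1:**
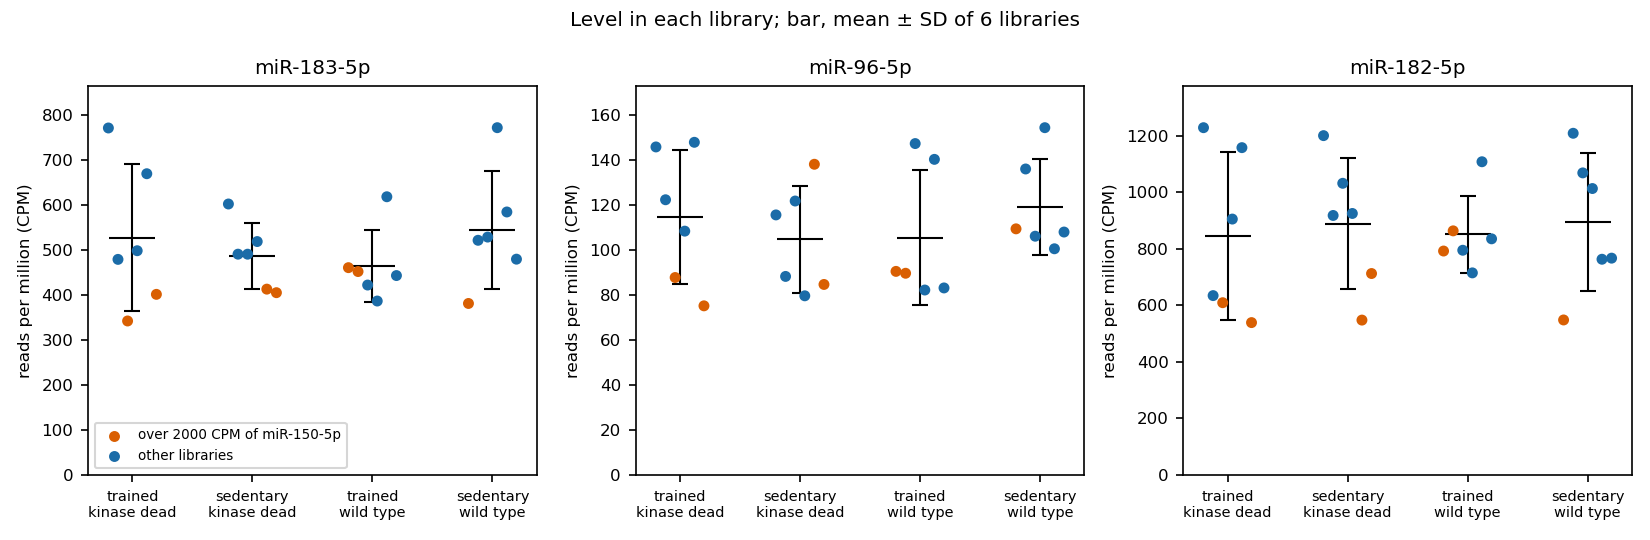
CPM of miR-183-5p, miR-96-5p and miR-182-5p (linear vertical axes from 0) in each of the 24 libraries by group, with the mean ± SD of 6 libraries; orange points are the 7 libraries with over 2000 CPM of miR-150-5p. The 4 groups overlapped for each miRNA, and orange points held the lowest value of miR-182-5p in 3 of the 4 groups.

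miR-183-5p, the member at the 5′ end of the cluster, did not separate the groups. It ranged from 341.9 to 770.2 CPM in trained kinase dead libraries with a median of 488.2 CPM, and from 404.7 to 601.5 CPM in sedentary kinase dead libraries with a median of 490.1 CPM. In trained wild type libraries it ranged from 386.1 to 617.5 CPM with a median of 447.1 CPM, and in sedentary wild type libraries from 380.7 to 770.8 CPM with a median of 524.5 CPM. The groups overlapped in each comparison, and the highest trained kinase dead and sedentary wild type libraries stood within 1 CPM of each other. Means were 526.3 ± 162.8 CPM in trained kinase dead, 486.2 ± 72.7 CPM in sedentary kinase dead, 463.3 ± 80.1 CPM in trained wild type and 543.9 ± 130.2 CPM in sedentary wild type libraries (SD, n = 6 each). By mean, sedentary wild type was highest, then trained kinase dead, sedentary kinase dead and trained wild type, and no neighbours in that order differed by more than their SDs.

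miR-96-5p, the middle member, known from the inner ear for seed mutations that cause hearing loss in mouse and human, was the lowest in level. It had 75.1 to 147.7 CPM in trained kinase dead libraries with a median of 115.2 CPM, and 79.5 to 137.9 CPM in sedentary kinase dead libraries with a median of 101.8 CPM. In trained wild type libraries it had 82.1 to 147.1 CPM with a median of 90.0 CPM, and in sedentary wild type libraries 100.4 to 154.2 CPM with a median of 108.6 CPM. The trained wild type values lay in 2 sets, with 4 libraries at 82.1 to 90.4 CPM and the other two at 140.1 and 147.1 CPM. Means were 114.4 ± 29.8 CPM in trained kinase dead, 104.6 ± 23.7 CPM in sedentary kinase dead, 105.4 ± 29.9 CPM in trained wild type and 118.9 ± 21.2 CPM in sedentary wild type libraries (SD, n = 6 each). Sedentary wild type was again highest, followed by trained kinase dead, trained wild type and sedentary kinase dead, all closer together than their SDs.

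miR-182-5p, the most abundant member and the one farthest from Mir183, had nearly equal group means. It had 539.1 to 1228 CPM in trained kinase dead libraries with a median of 769.9 CPM, and 547.9 to 1200 CPM in sedentary kinase dead libraries with a median of 921.5 CPM. In trained wild type libraries it had 714.9 to 1108 CPM with a median of 815.1 CPM, and in sedentary wild type libraries 548.4 to 1209 CPM with a median of 890.1 CPM. Means were 845.7 ± 297.3 CPM in trained kinase dead, 889.3 ± 231.0 CPM in sedentary kinase dead, 851.5 ± 135.3 CPM in trained wild type and 894.8 ± 243.5 CPM in sedentary wild type libraries (SD, n = 6 each). Both sedentary groups had higher means than both trained ones, by less than their SDs.

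Training was compared within each genotype and averaged over both, and the training effects of the genotypes were compared with each other. In the quasi-likelihood test of edgeR, with p-values adjusted over 654 loci by Benjamini-Hochberg, trained minus sedentary in kinase dead gave log2 fold changes of 0.11 (SE 0.19) for miR-183-5p, 0.13 (SE 0.20) for miR-96-5p and -0.07 (SE 0.22) for miR-182-5p, each with an adjusted p of 0.9967. Trained minus sedentary in wild type gave -0.23 (SE 0.19, adjusted p = 0.9133) for miR-183-5p, -0.17 (SE 0.20, adjusted p = 0.9896) for miR-96-5p and -0.07 (SE 0.22, adjusted p = 0.994) for miR-182-5p. None of the 3 members passed the test. The adjusted p passed 0.05 for 0% of the tested loci in both comparisons, and the unadjusted edgeR p was under 0.05 for 2.6% of them in kinase dead and for 5.81% in wild type, none of these a member. DESeq2 also called 0 loci in both, with 17 and 41 at an unadjusted p under 0.05. The median log2 fold change over all tested loci was -0.02 in kinase dead and -0.01 in wild type, beside member medians of 0.11 and -0.17.

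miR-183-5p and miR-96-5p thus had estimates of opposite sign in the 2 genotypes, which the difference between training effects addresses directly. Kinase dead minus wild type, that difference was 0.35 (SE 0.26, 95% interval -0.20 to 0.89) on the log2 scale for miR-183-5p, 0.30 (SE 0.28, interval -0.28 to 0.88) for miR-96-5p and -0.0005 (SE 0.32, interval -0.65 to 0.65) for miR-182-5p. The unadjusted edgeR p-values were 0.2022, 0.2906 and 0.9989, and the adjusted ones 0.9996, 0.9996 and 0.9998. Across all loci 0% passed the adjusted threshold and 1.99% the unadjusted one, and DESeq2 called 0, with 14 loci at an unadjusted p under 0.05. The estimates of miR-183-5p and miR-96-5p moved when single libraries were left out, falling to 0.12 and 0.15 without trained kinase dead library 1. Filter, scaling and spread were estimated anew after each omission, so a shift reflects more than the value of the omitted library. Without trained kinase dead library 5, trained wild type library 4 or sedentary kinase dead library 6, miR-183-5p had 0.21, 0.22 and 0.22 and miR-96-5p 0.17, 0.18 and 0.19. miR-183-5p also had 0.22 without sedentary wild type library 4, and miR-96-5p 0.20 without trained wild type library 6 or sedentary wild type library 2. Other omissions moved the training effects behind the difference farther apart. For miR-183-5p, training in kinase dead was 0.24 without trained kinase dead library 3, against 0.11 in all libraries. Its training effect in wild type was -0.31 without sedentary wild type library 1, against -0.23. Averaged over genotypes, trained minus sedentary was -0.06 (SE 0.13) for miR-183-5p, -0.02 (SE 0.14) for miR-96-5p and -0.07 (SE 0.16) for miR-182-5p, each with an edgeR adjusted p of 0.9945, while 0% of loci passed the adjusted and 5.66% the unadjusted threshold (0 and 41 loci in DESeq2). In linear terms the averaged intervals ran from a fold of 0.795 to 1.16 for miR-183-5p, 0.806 to 1.21 for miR-96-5p and 0.759 to 1.19 for miR-182-5p, so changes beyond those limits lay outside the 95% intervals and smaller ones could not be told from none.

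Genotype was compared within each training state. Kinase dead minus wild type in trained mice gave log2 fold changes of 0.18 (SE 0.19) for miR-183-5p, 0.12 (SE 0.20) for miR-96-5p and -0.01 (SE 0.22) for miR-182-5p, each with an edgeR adjusted p of 0.9988. In sedentary mice the same difference was -0.16 (SE 0.19) for miR-183-5p, -0.18 (SE 0.20) for miR-96-5p and -0.01 (SE 0.22) for miR-182-5p, each with an adjusted p of 0.9964 in edgeR. In both comparisons 0% of loci passed the adjusted threshold, and 0.917% in trained and 0.765% in sedentary libraries had an unadjusted p under 0.05, no member among them. DESeq2 called 0 loci in both, with 11 and 6 at an unadjusted p under 0.05.

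**Figure D2:**
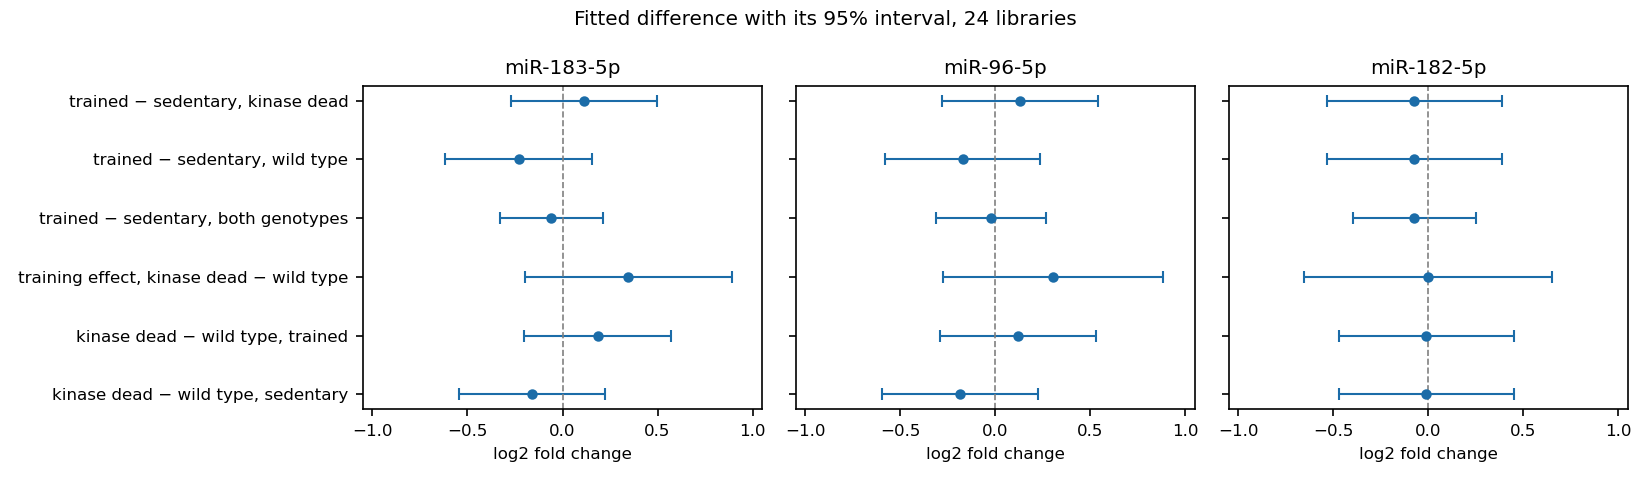
Fitted log2 fold change (horizontal axis, edgeR) of each miRNA in 6 comparisons (rows), as a point with its 95% interval, from 24 libraries. Each of the 18 intervals crosses 0; the widest are those of the difference between training effects, from -0.65 to 0.65 for miR-182-5p.

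Without the 7 libraries rich in miR-150-5p, no locus passed the adjusted threshold in any of the 6 comparisons either. Estimates moved nonetheless. For miR-96-5p, training in kinase dead was 0.36 in the 17 libraries (edgeR adjusted p = 0.7509), against 0.13 in all 24, and averaged training was 0.15 in the 17, against -0.02 in all 24. For genotype in trained mice, miR-183-5p had 0.37 in the 17 (edgeR adjusted p = 0.9973), against 0.18 in all 24, and miR-182-5p had 0.18 in the 17, against -0.01 in all 24. Training in kinase dead for miR-183-5p was 0.20 in the 17, against 0.11 in all 24.

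Ratios between members need no scaling between libraries, and they addressed whether the cluster kept its proportions. Of the summed reads of the 3 members, miR-182-5p made up 58.2 ± 4.1%, miR-183-5p 34.2 ± 3.3% and miR-96-5p 7.6 ± 1.7% (SD, 24 libraries). The share of miR-182-5p ranged from 49.88% to 64.79%, that of miR-183-5p from 27.93% to 40.34% and that of miR-96-5p from 5.224% to 12.56%. The share of miR-96-5p thus varied most for its size, by a factor above 2.

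The ratio of miR-183-5p to miR-182-5p averaged 0.636 ± 0.092 in trained kinase dead, 0.565 ± 0.098 in sedentary kinase dead, 0.544 ± 0.022 in trained wild type and 0.628 ± 0.140 in sedentary wild type libraries (SD, n = 6 each). The trained wild type libraries lay within 0.523 and 0.581, while sedentary wild type libraries ran from 0.431 to 0.765. Kinase dead minus wild type in trained libraries was 0.21 on the log2 scale with an unadjusted p of 0.01732 in a two-sided exact permutation test over all splits of 6 against 6, and the 2 groups still overlapped, with trained kinase dead libraries at 0.550 to 0.754. Adjusted over the 12 tests of 3 ratios in 4 comparisons, that p was 0.2078, so the difference did not pass the threshold. The smallest p this exact test can give is 0.002165. The other ratio differences for this pair were 0.17 for training in kinase dead, -0.18 for training in wild type and -0.14 for genotype in sedentary libraries, with unadjusted exact permutation p-values of 0.1861, 0.2338 and 0.4177.

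The ratio of miR-96-5p to miR-182-5p averaged 0.140 ± 0.028 in trained kinase dead, 0.128 ± 0.062 in sedentary kinase dead, 0.124 ± 0.031 in trained wild type and 0.139 ± 0.035 in sedentary wild type libraries (SD, n = 6 each). Its 4 differences were between -0.19 and 0.22 on the log2 scale, with unadjusted exact permutation p-values of 0.3009 to 0.4978. For training in kinase dead the difference was 0.22 in all libraries, 0.44 without sedentary kinase dead library 5 (exact permutation p = 0.01299, adjusted 0.1039) and 0.47 without the 7 libraries rich in miR-150-5p (exact permutation p = 0.02857, adjusted 0.2143). The ratio of miR-96-5p to miR-183-5p averaged 0.221 ± 0.030, 0.220 ± 0.065, 0.229 ± 0.061 and 0.224 ± 0.043 in the same order of groups, and its 4 differences were between -0.06 and 0.05. No ratio passed the adjusted threshold in any comparison.

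**Figure D3:**
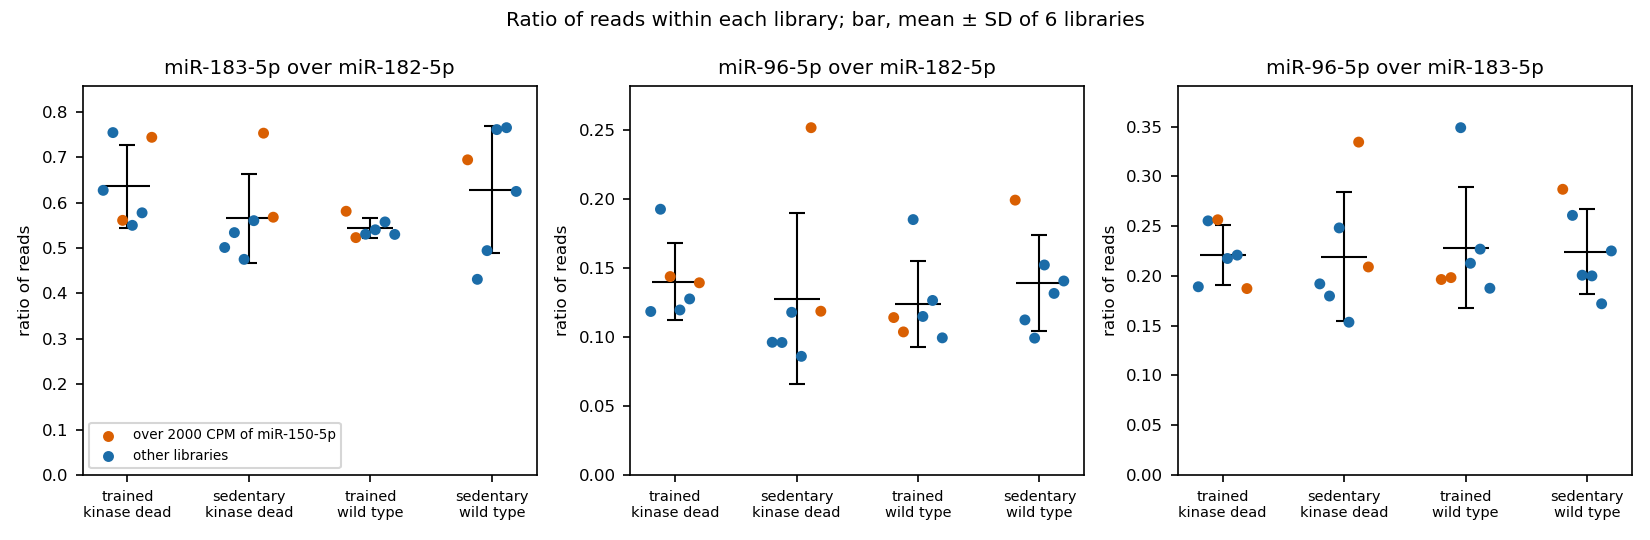
Ratio of reads within each library (linear vertical axes from 0) for the 3 pairs of members by group, with the mean ± SD of 6 libraries; orange points are the 7 libraries with over 2000 CPM of miR-150-5p. The trained wild type libraries sit between 0.523 and 0.581 for miR-183-5p over miR-182-5p, and single libraries stand high for miR-96-5p, up to 0.252 over miR-182-5p.

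All 3 pairs of members covaried over the libraries. miR-183-5p and miR-182-5p followed each other over the 24 libraries with a Pearson r of 0.78 and a Spearman rho of 0.83 on log2 CPM, each with p = 2e-05 in a permutation test of 100000 resamples and 6e-05 after adjustment over the 3 pairs. miR-183-5p and miR-96-5p had r = 0.60 (permutation p = 0.00199, adjusted 0.00299) and rho = 0.55 (permutation p = 0.00673, adjusted 0.0101). miR-96-5p and miR-182-5p had r = 0.43 (permutation p = 0.0349 before and after adjustment) and rho = 0.45 (permutation p = 0.0291 before and after adjustment). Levels of 1 library share its scaling. With the total of reads alone as the scaling the 3 pairs kept their sign and their side of the threshold. That total is also shared by all levels of a library, so this alternative does not remove the shared scaling. Whether the 3 correlations differ from each other was not tested.

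miR-183-5p and miR-182-5p had an r of at least 0.65 in each set of libraries examined, and the other pairs did not. With the group means subtracted, r was 0.81 for miR-183-5p with miR-182-5p, 0.57 for miR-183-5p with miR-96-5p and 0.46 for miR-96-5p with miR-182-5p. Without the 2 libraries farthest from the median, of miR-183-5p for the first pair and of miR-96-5p for the others, r was 0.79, 0.50 and 0.33 in the same order of pairs, and the last no longer passed the test (permutation p = 0.134). That relation was near the threshold in all 24 libraries, and leaving out single libraries also ended it in 7 of 24 cases. Those were trained kinase dead libraries 1, 3, 5 and 6, trained wild type library 5, and sedentary wild type libraries 2 and 4, with r between 0.36 and 0.41. Among the 17 libraries not over 2000 CPM of miR-150-5p, r was 0.66 for miR-183-5p with miR-182-5p, 0.59 for miR-183-5p with miR-96-5p and 0.46 for miR-96-5p with miR-182-5p. Among the 7 libraries over it, r was 0.65 (exact permutation p = 0.12), 0.01 (exact permutation p = 0.98) and -0.33 (exact permutation p = 0.498).

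**Figure D4:**
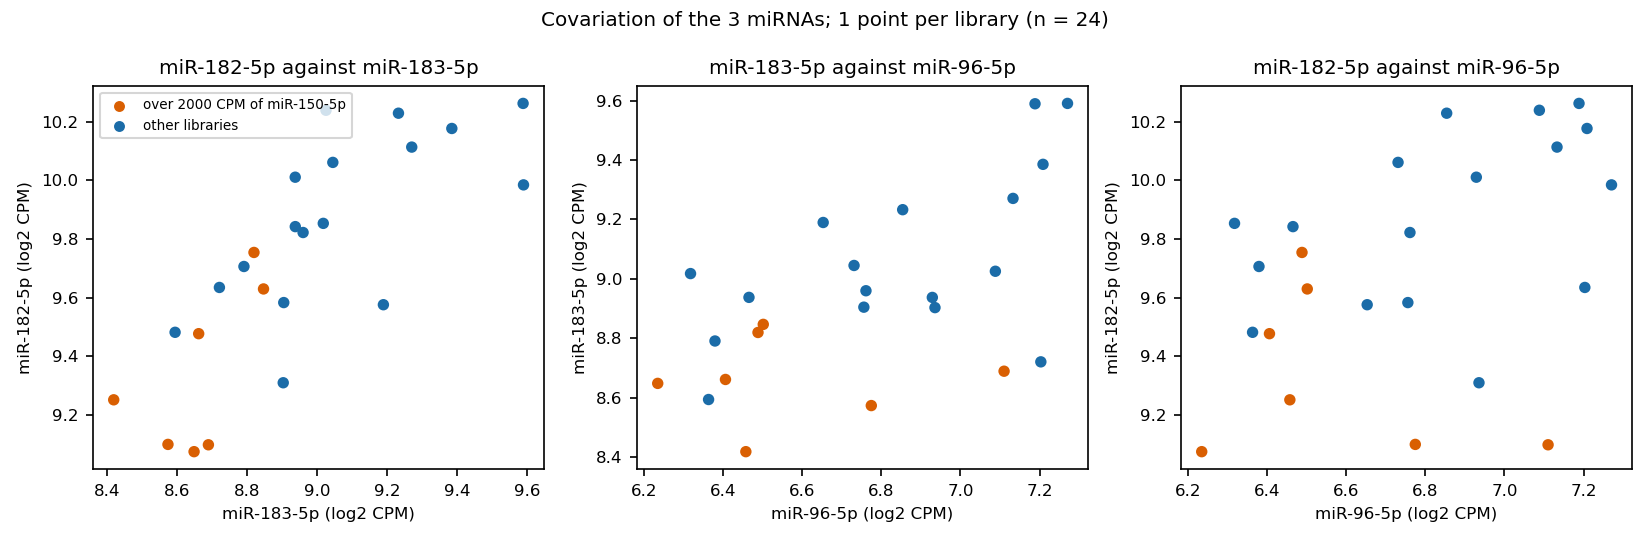
Levels of each pair of members (log2 CPM on both axes) with 1 point per library, 24 libraries; orange points are the 7 libraries with over 2000 CPM of miR-150-5p. miR-182-5p against miR-183-5p forms the narrowest band (r = 0.78), and miR-182-5p against miR-96-5p scatters most (r = 0.43).

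Among all tested loci, miR-182-5p was the closest partner of miR-183-5p, ranking 1 of 653 by Spearman rho with group means subtracted (0.81). In the other direction miR-183-5p ranked 3 of 653 for miR-182-5p. miR-96-5p ranked 67 for miR-183-5p (rho 0.41) and 73 for miR-182-5p (rho 0.45), and for miR-96-5p itself miR-182-5p ranked 28 and miR-183-5p ranked 41. The median rho over all loci was -0.05 for miR-183-5p, -0.02 for miR-96-5p and -0.09 for miR-182-5p.

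The 5 loci most like each member outside the cluster, by the same measure over 24 libraries, were as follows. For miR-182-5p they were miR-200a-5p (rho 0.86), miR-200c-3p (0.84), miR-411-5p (0.77), miR-200b-5p (0.76) and miR-200b-3p (0.75). Of these, 4 belong to the miR-200 family, whose known role is to hold cells in an epithelial state by repressing Zeb1 and Zeb2. For miR-183-5p they were miR-3081-3p (rho 0.73), miR-34c-5p (0.68), miR-200a-5p (0.66), miR-411-5p (0.66) and miR-134-5p (0.65). For miR-96-5p they were miR-1193-3p (rho 0.67), miR-429-3p (0.66), miR-496a-3p (0.65), miR-205-5p (0.63) and miR-200a-3p (0.61). miR-1193-3p and miR-496a-3p averaged only 2.94 and 2.35 CPM. These loci are picks from 653 and their values are a description. Among the 17 libraries the rho of miR-182-5p with miR-200a-5p was 0.65, with miR-200c-3p 0.64 and with miR-200b-3p 0.36.

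Over the 34 markers of 9 cell types, 102 correlations were computed, and p-values of rho were adjusted over all 102. Each member passed with some of the epithelial miRNAs. miR-182-5p had rho = 0.80 with miR-200c-3p (permutation p = 3e-05, adjusted 0.00306; r = 0.83) and 0.69 with miR-200b-3p (permutation p = 0.00029, adjusted 0.0074; r = 0.75), and 2 of 7 epithelial markers passed. miR-96-5p had rho = 0.73 with miR-429-3p (permutation p = 0.00011, adjusted 0.00561; r = 0.71), 0.64 with miR-200a-3p (permutation p = 0.00117, adjusted 0.0132; r = 0.70) and 0.63 with miR-205-5p (permutation p = 0.00123, adjusted 0.0132; r = 0.66), and 3 of 7 passed. miR-183-5p passed with 4 of 7, namely miR-200c-3p (rho 0.63), miR-200a-3p (0.62), miR-200b-3p (0.57) and miR-429-3p (0.55). No member passed with miR-141-3p or miR-203-3p. For miR-182-5p, miR-96-5p and miR-183-5p, rho was 0.21, 0.39 and 0.18 with miR-141-3p, and 0.44, -0.03 and 0.28 with miR-203-3p. miR-200b-3p and miR-200c-3p were lower in each of the 7 libraries rich in miR-150-5p, at 1770 to 2477 CPM and 910.2 to 1370 CPM, than in the other 17, at 2565 to 4675 CPM and 1400 to 2318 CPM. Correlations with these 2 miRNAs over all 24 libraries therefore include the step between the sets, and their p-values cannot separate it from covariation within a set. Within sets, rho of miR-182-5p with miR-200b-3p was 0.36 in the 17 and 0.89 in the 7. Whether the members differ in these correlations was not tested.

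Without the 2 libraries farthest from the member's median, r was 0.78 for miR-182-5p with miR-200c-3p, 0.66 for miR-182-5p with miR-200b-3p, 0.63 for miR-96-5p with miR-429-3p, 0.66 for miR-96-5p with miR-200a-3p and 0.56 for miR-96-5p with miR-205-5p. The relation of miR-183-5p with miR-429-3p was lower there, at r = 0.35 against 0.56 in all 24. Among the 17 libraries, rho of miR-96-5p was 0.61 with miR-429-3p, 0.52 with miR-200a-3p and 0.50 with miR-205-5p, and among the 7 it was 0.96, 0.43 and 0.93. With the remaining epithelial miRNAs its rho among the 7 was -0.43 for miR-200c-3p, -0.29 for miR-203-3p, -0.11 for miR-200b-3p and 0.46 for miR-141-3p. rho of miR-182-5p with miR-200c-3p was 0.64 in both sets. Among the 7 its rho was -0.57 with miR-200a-3p, -0.07 with miR-429-3p, -0.04 with miR-205-5p, 0.64 with miR-203-3p and 0.79 with miR-141-3p. Among the 17 these values were 0.13, 0.19, 0.01, 0.08 and -0.0025 in the same order. For miR-183-5p, rho among the 17 was 0.23 with miR-200c-3p and 0.15 with miR-200b-3p, so its relations with these 2 miRNAs did not hold there. With miR-200a-3p and miR-429-3p its rho was also lower than in all 24, at 0.45 and 0.30 among the 17. Among the 7 those 2 values were 0.29 and 0.11, while its rho there was 0.64 with miR-200c-3p and 0.39 with miR-200b-3p.

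Of the 5 lymphocyte markers, miR-181a-5p did not separate the sets, at 1407 to 1706 CPM in the 7 libraries and 778.9 to 1656 CPM in the 17. Over all 24 it went against miR-182-5p, with rho = -0.68 (permutation p = 0.00038, adjusted 0.00765) and r = -0.67 (permutation p = 0.00033, adjusted 0.00421). Without the 2 libraries farthest from the member's median r was -0.65, and rho was 0.11 in the 7 libraries and -0.61 in the 17. With miR-183-5p and miR-96-5p its rho was -0.51 (adjusted permutation p = 0.0538) and -0.13 (adjusted permutation p = 0.671). The other 4 markers split the libraries, so their correlations are given within each set, as descriptions. For miR-182-5p, rho with miR-150-5p was -0.89 in the 7 libraries and 0.16 in the 17, with miR-155-5p -0.86 in the 7 and 0.06 in the 17, with miR-142-5p -0.71 in the 7 and 0.01 in the 17, and with miR-142-3p 0.18 in the 7 and 0.50 in the 17. For miR-183-5p the 4 values ran from -0.21 to 0.29 in the 7 and from -0.27 to 0.05 in the 17, and for miR-96-5p from 0.00 to 0.71 in the 7 and from -0.39 to -0.03 in the 17. Between the sets the members themselves differed in level. miR-183-5p had 341.9 to 460.2 CPM in the 7 libraries over 2000 CPM of miR-150-5p, against 386.1 to 770.8 CPM in the other 17. miR-182-5p had 539.1 to 863.5 CPM in the 7, against 634.5 to 1228 CPM in the 17, and miR-96-5p 75.1 to 137.9 CPM in the 7, against 79.5 to 154.2 CPM in the 17. The sets overlapped for each member, and no test was made because they were set by a measured level.

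The epithelial markers were lower in the 7 libraries too, with a sum of 14310 to 17020 CPM, against 15180 to 26370 CPM in the 17. The median sums of adipocyte enriched, smooth muscle and stroma, endothelium, striated muscle, nerve and red cell markers were lower there as well. Adipocyte enriched markers summed to 55100 to 77250 CPM in the 7, against 68810 to 97350 CPM in the 17. The myeloid marker was not lower, with medians of 185.6 CPM in the 7 and 181.8 CPM in the 17. Set against the epithelial sum in the same library, a measure chosen after seeing the data, the members differed between the sets by less than their SDs. miR-183-5p amounted to 26.2 ± 2.4 CPM per 1000 CPM of epithelial miRNA in the 7 libraries and to 25.7 ± 4.5 in the 17 (SD). miR-182-5p amounted to 42.4 ± 8.7 per 1000 in the 7 and to 45.3 ± 9.2 in the 17, and miR-96-5p to 6.16 ± 1.11 in the 7 and to 5.46 ± 0.92 in the 17. Over all 24 libraries the coefficient of variation was 15.4% for miR-183-5p, 17.8% for miR-96-5p and 20.1% for miR-182-5p on this measure, lower than the values of 22.6%, 22.9% and 25.2% on CPM. No other marker sum was used as the divisor. A divisor that is itself lower in the 7 libraries can bring the sets closer, so these values do not set epithelial markers apart from other lists. The part of epithelial or lymphoid cells in the members' levels was not tested.

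**Figure D5:**
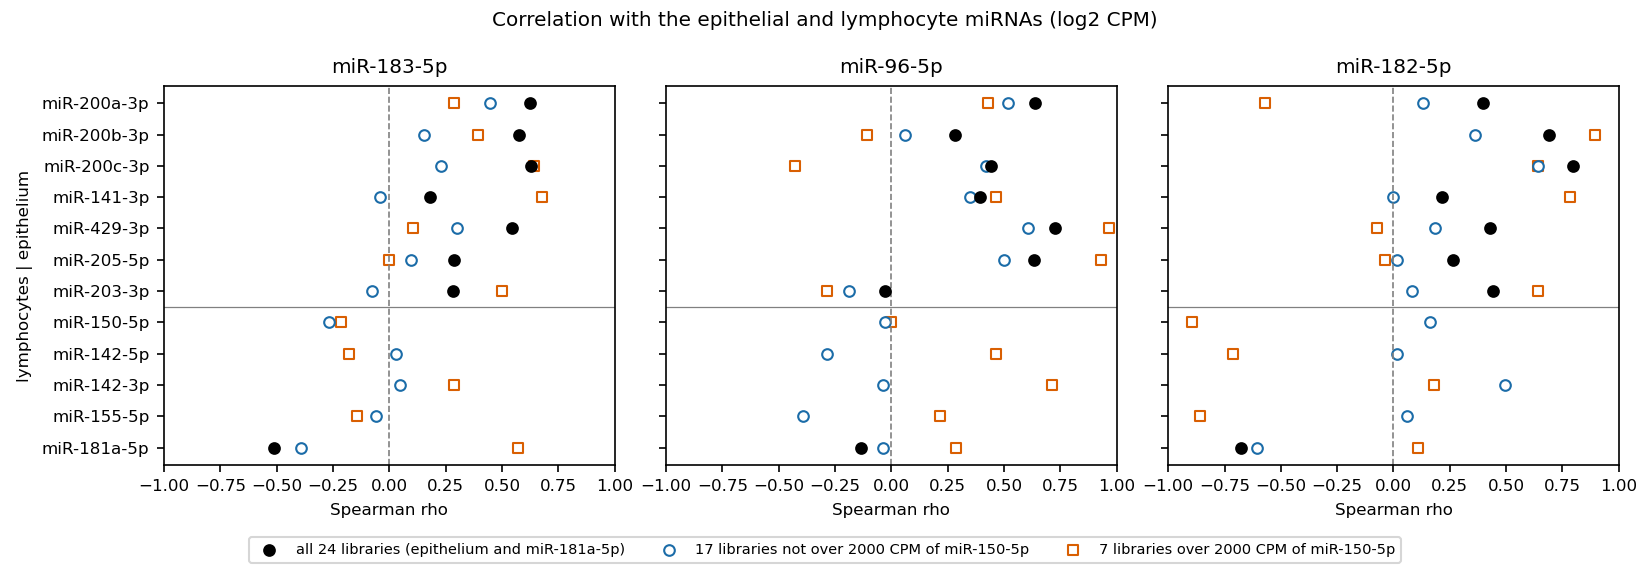
Spearman rho (horizontal axis, log2 CPM) of each member with 7 epithelial and 5 lymphocyte miRNAs (rows). Black points use all 24 libraries and are drawn for epithelial miRNAs and miR-181a-5p only, open circles the 17 libraries not over 2000 CPM of miR-150-5p and open squares the 7 over it; miR-96-5p with miR-429-3p and miR-182-5p with miR-200c-3p stay above 0.6 in each set.

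Among the other lists, 4 correlations passed by rho. These were miR-182-5p with miR-126a-3p of the endothelium (rho = 0.70, adjusted permutation p = 0.0074, rho 0.46 in the 17 libraries) and with miR-30a-5p of the 5 adipocyte enriched markers (rho = 0.62, adjusted permutation p = 0.0153), and miR-183-5p with miR-30a-5p (rho = 0.60, adjusted permutation p = 0.0209) and with miR-214-3p of the 4 smooth muscle and stroma markers (rho = 0.58, adjusted permutation p = 0.0278). In the 17 libraries rho with miR-30a-5p was 0.27 for miR-182-5p and 0.22 for miR-183-5p, and rho of miR-183-5p with miR-214-3p was 0.13. By rho, the myeloid marker, the 5 striated muscle, 3 red cell and 3 nerve markers gave 0 correlations past the threshold for the members. By r, adjusted over the same 102, more passed. miR-182-5p did so with the nerve marker miR-9-5p (r = 0.55, adjusted permutation p = 0.0249) and with miR-143-3p (0.51, adjusted 0.0408). miR-96-5p did so with miR-145a-5p (0.53, adjusted 0.0326), miR-193b-3p (0.53, adjusted 0.0326) and miR-365-3p (0.55, adjusted 0.0249). Within sets, r of miR-182-5p with miR-143-3p was 0.03 in the 17 libraries and 0.08 in the 7. With miR-9-5p it was 0.21 in the 17 and 0.51 in the 7. The 3 values of miR-96-5p were 0.46, 0.46 and 0.43 in the 17, and 0.37, 0.42 and 0.47 in the 7.

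The 3p arms of the hairpins, the strands mostly discarded during loading, were scarce. Summed over 24 libraries miR-183-3p had 223 reads beside 105681 of the 5p arm, miR-96-3p had 179 beside 23468 and miR-182-3p had 213 beside 185425. The 3p arm thus made up 0.211% of the reads of Mir183 (95% Wilson interval 0.185% to 0.24%), 0.757% of those of Mir96 (0.654% to 0.876%) and 0.115% of those of Mir182 (0.1% to 0.131%), intervals that cover counting error only. None of the 3 arms passed the filter on low counts. In single libraries they had 1 to 47 reads for miR-183-3p, 0 to 41 for miR-96-3p and 0 to 49 for miR-182-3p.

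Tested without the filter, the 3 arms gave positive log2 fold changes for trained minus sedentary in kinase dead, of 0.71 (SE 0.43) for miR-183-3p, 1.07 (SE 0.54) for miR-96-3p and 0.90 (SE 0.45) for miR-182-3p, and none passed the threshold (edgeR adjusted p = 0.9233 for each). Behind them stood 89, 72 and 95 reads in the 6 trained kinase dead libraries, against 31, 20 and 30 reads in the 6 sedentary kinase dead libraries, which were also sequenced less deeply. Trained kinase dead library 5, the deepest of all, held 47, 41 and 49 of those reads, and without it the sums were 42, 31 and 46. As a share of its hairpin the 3p arm was 0.232%, 0.856% and 0.145% in trained kinase dead, against 0.16%, 0.484% and 0.0856% in sedentary kinase dead libraries. In wild type the same comparison gave -0.08, -0.08 and -0.34. miR-96-5p and its 3p arm correlated over the 24 libraries with r = 0.50 (permutation p = 0.0118, adjusted over 3 pairs 0.0354) and rho = 0.53 (permutation p = 0.00822, adjusted 0.0247), while r was 0.61 among the 17 libraries and -0.02 among the 7. Without the 2 libraries farthest from the median of miR-96-5p r was 0.57. For miR-183 and miR-182 the arms had r = 0.28 and 0.24, with adjusted permutation p = 0.271 for each.

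Of 9 correlations of the members and their ratios with depth or scaling, none passed the test. The members had r = -0.10 for miR-183-5p, -0.04 for miR-96-5p and 0.14 for miR-182-5p with the log2 total of reads, and rho of -0.09, 0.02 and 0.07 (permutation p = 0.519 or higher throughout). The scaling factor of a library went with miR-182-5p at r = -0.47 (permutation p = 0.0212, adjusted 0.191) and rho = -0.48 (permutation p = 0.0179, adjusted 0.145), and r was -0.38 without the 2 libraries farthest from the median factor. With miR-183-5p the factor had r = -0.37 (adjusted permutation p = 0.286). A lower factor raises each CPM of a library, and the ratios between members do not use it.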

How the data were processed

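Small RNA from the 24 libraries had been extracted with TRIzol and prepared with a NEBNext small RNA kit, per the labels' protocols. CASAVA 1.8.2, Trim Galore, Bowtie2 and featureCounts, with build mm10, are named in the submitters' processing notes; the sources used here give no other versions and no settings for strand or multiple mapping. The deposited values are raw read counts by mature locus, not normalized. Each column was assigned to its library by its title.

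Loci were named by exact RefSeq coordinates (1670) or by their GENCODE hairpin (375); 344 had no read. Counts were fitted with edgeR 4.0.16 (R 4.3.3) in 1 model of 4 group means with TMM scaling and filterByExpr, whose removed loci held 0.0166% of reads, and calls used an adjusted p under 0.05. DESeq2 1.42.0 served as an alternative. Log2 CPM used a prior count of 2. Ratios were tested by exact permutation over all splits of 6 against 6, correlations by 100000 permutations in Python 3.11.15 with numpy 2.4.6, or exactly for 7 libraries. The edgeR step was tested on simulated data. The members, marker lists and tests were chosen with earlier results of these data known. Named beside the members were their 3p arms, loci with the same seed, the 5 loci most correlated with each member (group means subtracted) and the markers. Replicate numbers follow the order of the samples and pair nothing. Alternatives were another scaling, no filter, DESeq2, only the groups compared, a lymphocyte covariate, leaving out the 7 libraries rich in miR-150-5p, and leaving out each library. The correlations within those 7 libraries, those without each library, and the levels per 1000 CPM of epithelial miRNA were chosen after seeing the data.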

Additional observations from a re-analysis of the deposited data

Results flagged for a closer look

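Dixon's test was applied to 24 sets of 6 libraries, 6 sets for each of the 4 groups. By this test 6 values, from 4 libraries, stood apart from the others of their group. Chance alone does so in about 1 of 20 sets. The sets are not independent, since ratios and levels come from the same counts, so that share cannot judge the number found. miR-183-5p had 617.5 CPM in trained wild type library 5, against 386.1 to 460.2 CPM in the other 5 of that group. The ratio of miR-183-5p to miR-182-5p was 0.753 in sedentary kinase dead library 5, against 0.475 to 0.568 in the others. The ratio of miR-96-5p to miR-182-5p was 0.252 in that same library, against 0.086 to 0.119 in the others, and the library is among the 7 with over 2000 CPM of miR-150-5p. That ratio was 0.193 in trained kinase dead library 2, against 0.119 to 0.144 in the others, and 0.185 in trained wild type library 3, against 0.0994 to 0.126. The ratio of miR-96-5p to miR-183-5p was 0.349 in trained wild type library 3 as well, against 0.188 to 0.227 in the other 5. miR-96-5p had 147.1 CPM in that library. What sets these libraries apart was not tested.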

How the results depend on the processing

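The number of called loci was 0 in each of the 130 combinations of a comparison and an alternative that were run, those that left out single libraries included. No member passed the threshold in any of them. Of 102 fold changes of members under the other alternatives, 89 kept their sign. The 13 that turned belonged to estimates near 0. Averaged training for miR-96-5p was 0.0398 with no filter and 0.15 without the 7 libraries rich in miR-150-5p. For miR-182-5p the difference of training effects was 0.0111 with relative log expression scaling, 0.0113 with DESeq2 and 0.0842 without the 7 libraries. Genotype in trained for miR-182-5p was 0.0014 with that scaling, 0.0022 with no filter, 0.0016 with DESeq2, 0.0047 with only the groups compared and 0.18 without the 7 libraries. Genotype in sedentary for miR-182-5p was 0.0232 with no filter, 0.0528 with the lymphocyte covariate and 0.0991 without the 7 libraries. The ratio of miR-96-5p to miR-182-5p with training in wild type turned to 0.0244 without the 7 libraries, and the other 35 ratio values kept their sign. The cause was not tested.

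Leaving out 1 library at a time turned the sign of 38 fold changes and 11 ratios, while 250 and 133 kept theirs. For miR-183-5p the values ran from -0.0483 to 0.24 for training in kinase dead, from -0.13 to 0.0361 for averaged training and from -0.0168 to 0.26 for genotype in trained. For miR-96-5p they ran from -0.076 to 0.0616 for averaged training and from -0.012 to 0.21 for genotype in trained. For miR-182-5p they ran from -0.24 to 0.031 for training in kinase dead, -0.19 to 0.0425 for training in wild type, -0.16 to 0.0081 for averaged training, -0.22 to 0.057 for the difference of training effects, -0.20 to 0.0803 for genotype in trained and -0.0961 to 0.14 for genotype in sedentary. For the ratio of miR-96-5p to miR-183-5p they ran from -0.0476 to 0.18 and from -0.12 to 0.0888 for training in kinase dead and in wild type, and from -0.0738 to 0.11 and from -0.19 to 0.037 for genotype in trained and in sedentary.

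The correlation of miR-96-5p with miR-182-5p ran from 0.36 to 0.56 over the libraries left out and lost the threshold in 7 of 24. It was 0.33 without the 2 farthest libraries, 0.46 without the 7 libraries (adjusted p = 0.0679) and -0.33 within them. Within the 7 libraries the other correlations also lost the threshold, at 0.65 for miR-183-5p with miR-182-5p and 0.0129 for miR-183-5p with miR-96-5p. The other 13 correlation values and 65 of 72 without single libraries kept sign and call. No paired analysis was possible because the labels carry no replicate numbers. Counting error limits the 3p arms most, with as few as 0 reads in a library.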
